A study of Mus musculus with 12 samples.

Results

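The tumour suppressor p53, its inhibitors and the genes that p53 activates were examined across the 12 RNA-Seq libraries of the study. The 10 genes were taken by symbol from the expression files and were *Trp53*, *Mdm2*, *Mdm4*, *Cdkn1a*, *Ccng1*, *Bax*, *Trp53inp1*, *Phlda3*, *Zmat3* and *Perp*. All 10 were listed among the 23284 gene names of the sorted osteoblast files and the 24346 names of the MC3T3-E1 files. They were chosen because *Mdm2* was about 2-fold higher in *Slpi*-overexpressing cells, with the question whether the targets of p53 followed. The values of these genes in *Slpi*-overexpressing against mock cells are therefore a description without a test, while their response to parathyroid hormone (PTH) was tested.

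The first experiment compared osteoblasts of female Col2.3-ECFP mice, in which a type I collagen promoter drives cyan fluorescent protein in mature osteoblasts. The mice were 12 weeks old at the start and received vehicle (PBS) or intermittent PTH (1-34), a fragment of human PTH, at 40 µg/kg on 5 days per week for 3 weeks, and 7AAD-Lin-CD45-ECFP+ cells were sorted 24 h after the last injection. The second experiment compared MC3T3-E1 cells, a clonal mouse osteoblastic line, that stably carried a retroviral vector with *Slpi*, a secreted serine protease inhibitor, or the empty vector (mock), both after puromycin selection. Each of the 4 groups held 3 libraries, and the methods state in general that biological replicates were from different mice. How many mice gave each sorted library, and whether the MC3T3-E1 libraries were separate cultures, is not given in the sources used here, so that p-values measure the spread between these libraries only, which may be technical in the cell line.

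The p53 protein is a transcription factor that accumulates when DNA is damaged, ribosome assembly fails or oncogenes are active. It arrests the cell cycle mainly through p21, the product of *Cdkn1a*, and drives apoptosis through genes such as *Bax*. MDM2, itself the product of a p53 target gene, ubiquitinates p53 and sends it to the proteasome, which closes a feedback loop, and MDM4 binds and masks the activation domain of p53. In mice, loss of p53 is known to raise bone mass, and deletion of *Mdm2* in the osteoblast lineage is known to impair bone formation. Most control of p53 acts on the protein, which was not measured here.

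The binding site of p53 is made of a pair of half-sites, each a 10-base stretch of 3 purines, a C, 2 bases that are A or T, a G and 3 pyrimidines, a pattern that reads the same on both strands, and exact matches to it were searched. RefSeq promoters (GRCm38.p6, the mm10 assembly, 250 bases before to 50 bases after the start) were found for 7 of the 10 genes. They formed 9 windows, since *Cdkn1a* and *Mdm4* had more than 1, and 5 of these 7 genes held at least 1 half-site. A half-site was present in 8.36% of the 32851 mouse promoters of the same length, a share per promoter and not per gene. The promoters below are shown because their genes stand at the centre of the loop, with half-sites in capitals and the rest in lower case, each read 5′ to 3′ on the strand of its gene. *Mdm2* lies on the minus strand of chromosome 10, and the 225 bases shown are chr10:117710784-117711008, ending 26 bases before the start, with the half-site beginning 186 bases before the start.
Mdm2: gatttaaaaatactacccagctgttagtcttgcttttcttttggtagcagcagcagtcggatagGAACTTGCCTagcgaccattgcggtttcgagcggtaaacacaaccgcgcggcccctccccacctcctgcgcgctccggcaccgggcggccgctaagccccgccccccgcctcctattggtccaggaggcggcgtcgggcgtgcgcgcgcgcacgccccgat
*Cdkn1a* lies on the plus strand, and its other promoter, chr17:29093519-29093818, held 0 half-sites. The 225 bases shown are chr17:29090729-29090953, with half-sites 73 and 51 bases before the start of this promoter.
Cdkn1a: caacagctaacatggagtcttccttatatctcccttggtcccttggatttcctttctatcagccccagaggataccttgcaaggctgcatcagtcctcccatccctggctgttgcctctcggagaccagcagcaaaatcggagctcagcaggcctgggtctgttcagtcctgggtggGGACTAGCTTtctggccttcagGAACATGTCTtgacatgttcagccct
*Ccng1* lies on the minus strand, with the half-site in chr11:40755312-40755536 beginning 185 bases before the start.
Ccng1: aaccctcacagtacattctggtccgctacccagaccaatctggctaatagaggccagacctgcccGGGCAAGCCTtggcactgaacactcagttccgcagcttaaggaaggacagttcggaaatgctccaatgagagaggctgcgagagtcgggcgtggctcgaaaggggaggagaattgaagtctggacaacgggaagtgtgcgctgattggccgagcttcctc
*Bax* lies on the minus strand, with the half-site in chr7:45466924-45467148 beginning 201 bases before the start.
Bax: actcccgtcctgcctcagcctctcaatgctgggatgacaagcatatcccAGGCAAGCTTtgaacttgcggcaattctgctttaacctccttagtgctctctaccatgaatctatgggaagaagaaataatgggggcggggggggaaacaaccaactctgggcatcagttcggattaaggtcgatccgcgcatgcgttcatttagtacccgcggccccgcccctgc
*Trp53* itself lies on the plus strand, and the 30 bases around its half-site, which begins 75 bases before the start, are chr11:69580274-69580303.
Trp53: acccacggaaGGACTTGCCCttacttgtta
Among the 7 genes, only the *Cdkn1a* promoter shown held a pair of half-sites within 13 bases of each other, with a spacer of 12 bases. Directly after the second *Cdkn1a* half-site stands tgacatgttc, which misses the pattern only at its first base and so was not counted. The marked pair therefore need not be the site that p53 uses. An exact pair within 13 bases was present in 24 promoters (0.0731%). These matches describe letters within the window and do not show binding, and the promoter of *Mdm2* that responds to p53 is known to lie in its first intron, outside this window.

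Expression was measured in FPKM, the number of sequenced fragments scaled to transcript length and library size, and fold changes are differences of log2(FPKM + 1) between group means, with standard errors (SE) from limma. A gene was tested where at least 1 of the 6 libraries of its experiment reached 1 FPKM, which all 10 genes did in both experiments, and was called changed at a Benjamini-Hochberg adjusted p below 0.05. The files gave no read counts. The low values placed the depth of the osteoblast libraries between 0.787 and 1.40 times that of the first vehicle library, and that of the MC3T3-E1 libraries between 0.870 and 1 times that of the first mock library. The transgene was visible, since the level of *Slpi* was 377, 396 and 386 FPKM in mock cells but 2105, 1973 and 1848 FPKM after transduction with its cDNA, in the direction of the labels. The sorted cells expressed *Bglap*, encoding osteocalcin, at 6963 to 14280 FPKM, whereas MC3T3-E1 cells had 1.05 to 2.85 FPKM of it, and *Col1a1* was listed at 0 in the third vehicle library and in all 3 PTH libraries, where a failed estimate is possible. Of the 8 osteoblast markers, 2 rose with PTH (*Alpl*, log2 fold change 0.60, limma adjusted p = 0.0398, and *Spp1*, 0.81, adjusted p = 0.0139), 0 fell and 6 did not pass the test, with 6 higher and only *Col1a1* lower at an unadjusted p below 0.05 and a median of 0.42. Markers of other cell types also moved with PTH in the sorted cells. The summed FPKM of the 9 neutrophil markers found was 365 to 454 with vehicle and 682 to 2302 with PTH, that of the 6 T cell markers found was 87.4 to 136 with vehicle and 0.239 to 17.2 with PTH, and that of 5 mast cell and basophil markers was 48.2 to 75.4 with vehicle and 0.854 to 8.75 with PTH, with 2 of these 5 at 0 in all 6 libraries. The mast cell and basophil sum was mostly *Cpa3* (mean 63.8 FPKM with vehicle and 4.65 with PTH), and of 3 markers tested only this 1 fell. *Kit* and *Mcpt8* overlapped between the groups and did not pass the test (limma adjusted p = 0.765 and 0.744). The T cell sum was mostly *Cd3g* (mean 81.7 and 6.20 FPKM), and all 4 T cell markers tested fell. The 4 B cell markers found summed to 2.13 to 5.11 with vehicle and 3.08 to 5.51 with PTH, and the 4 megakaryocyte markers to 1.79 to 4.56 and 2.41 to 177. The third PTH library was the lowest PTH library in each of these lists of other cell types, though by little in the B cell markers (3.08 against 3.15 and 5.51). It also had the fewest genes at 1 FPKM or more (10795). The part of these cells, and of the osteoblast markers, in the PTH results was not tested. In MC3T3-E1 cells the summed level of each of these lists was at most 2.91 FPKM, and all 5 mast cell and basophil markers were at 0.

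*Trp53* encodes p53 and lies at chr11:69580359-69591873. In sorted osteoblasts it was at 38.5, 29.996 and 32.9 FPKM with vehicle and at 23.6, 21.7 and 23.5 FPKM with PTH. Every PTH library was below every vehicle library. Its mean of 33.8 ± 4.30 FPKM with vehicle (SD, n = 3) fell to 22.9 ± 1.08 FPKM with PTH (n = 3), which is -0.53 on the log2 scale (SE 0.118, limma adjusted p = 0.0316). In bulk libraries, fewer cells of a type and less RNA per cell cannot be told apart, and reads of a processed pseudogene, Trp53-ps, may be shared with the gene. In MC3T3-E1 cells *Trp53* was at 100.1, 105 and 106 FPKM in mock and at 137, 136 and 133 FPKM in *Slpi* libraries. Here the *Slpi* libraries were all above the mock libraries, at a mean of 136 ± 2.21 against 104 ± 3.25 FPKM and a log2 difference of 0.38 (SE 0.0336).

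*Mdm2*, the gene of the main p53 inhibitor, lies at chr10:117688875-117710758. It was at 90.3, 81.8 and 108 FPKM with vehicle and at 137.9, 123.03 and 151.7 FPKM with PTH. The groups did not overlap, and the mean rose from 93.5 ± 13.6 to 138 ± 14.3 FPKM (log2 fold change 0.56, SE 0.134, limma adjusted p = 0.0382). In MC3T3-E1 cells *Mdm2* was at 28.8, 27.6 and 29.1 FPKM in mock and at 62.4, 58.2 and 61.1 FPKM in *Slpi* libraries. This is the value by which the genes were chosen, with a mean of 60.5 ± 2.15 against 28.5 ± 0.795 FPKM, a ratio of 2.12 and a log2 difference of 1.06 (SE 0.0386). The next largest log2 difference among the 10 genes in these cells was the 0.47 of *Ccng1*, a ratio of 1.39, so that *Mdm2* alone of the 10 passed 2-fold.

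The libraries of *Mdm4*, the paralog of *Mdm2*, overlapped between groups in both experiments. It was at 8.67, 8.96 and 8.19 FPKM with vehicle and at 7.58, 8.89 and 8.70 FPKM with PTH (log2 fold change -0.03, SE 0.114, limma adjusted p = 0.849). In MC3T3-E1 cells it was at 27.4, 26.9 and 28.2 FPKM in mock and at 26.1, 28.0 and 28.9 FPKM in *Slpi* libraries, a log2 difference of 0.01 (SE 0.0438). The gene lies at chr1:132959484-133030561 and overlaps a processed pseudogene, Gm29257.

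The balance between inhibitor and p53 transcripts was followed within each library, as a ratio of FPKM values. The ratio of *Mdm2* to *Trp53* was 2.35, 2.73 and 3.30 with vehicle and 5.86, 5.68 and 6.45 with PTH. In MC3T3-E1 cells the same ratio was 0.288, 0.263 and 0.274 in mock and 0.454, 0.426 and 0.459 in *Slpi* libraries. In both experiments the treated libraries lay above the controls. In MC3T3-E1 cells, however, each ratio with *Mdm2* carries the value by which the genes were chosen, and is a description only. The opposite movement of *Trp53* and *Mdm2* with PTH thus gave a mean ratio of 5.99 ± 0.402 against 2.79 ± 0.478, while in MC3T3-E1 cells both transcripts were higher with *Slpi* and the ratio was 0.447 ± 0.0177 against 0.275 ± 0.0123. The ratio of *Mdm2* to *Mdm4* was 10.9 ± 2.10 with vehicle, 16.5 ± 2.33 with PTH, 1.04 ± 0.0141 in mock and 2.19 ± 0.167 in *Slpi* cells.

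**Figure D1:**
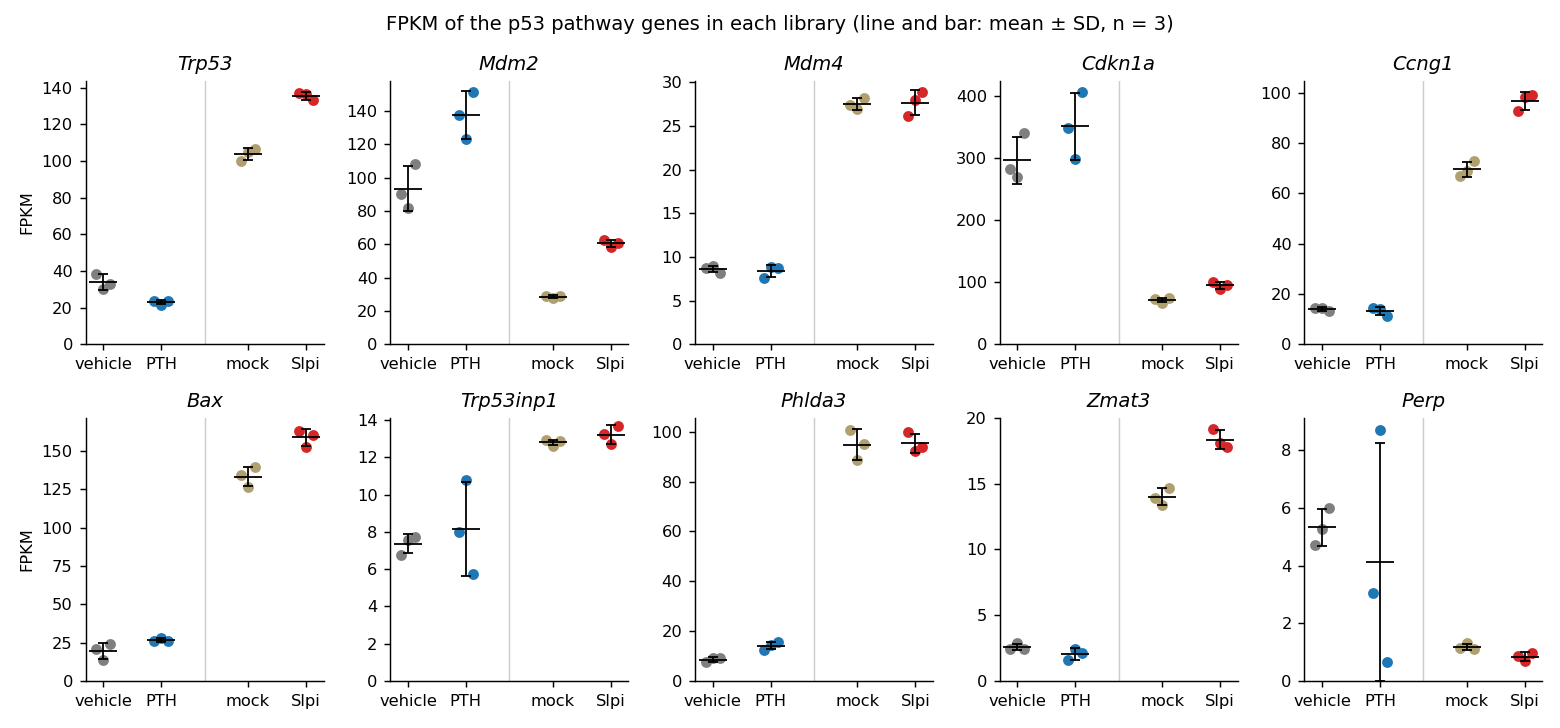
FPKM of the 10 p53 pathway genes (vertical axes, each from 0) in each library of the 4 groups, with 3 points per group and the mean ± SD (n = 3) as a line and bar. With PTH, *Trp53* was lower and *Mdm2*, *Bax* and *Phlda3* higher without overlap, and with *Slpi* 6 genes were higher, 1 was lower and 3 overlapped. Of all genes tested, 40.4% did not overlap with PTH and 67.1% with *Slpi*, the contrast on which the genes were chosen.

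*Cdkn1a*, the gene of the cyclin-dependent kinase inhibitor p21, lies at chr17:29090976-29100727. It was at 281, 268 and 339 FPKM with vehicle and at 347, 298 and 406 FPKM with PTH. The groups overlapped and the difference did not pass the test (log2 fold change 0.24, SE 0.145, limma adjusted p = 0.290). In MC3T3-E1 cells it was at 72.2, 66.9 and 74.5 FPKM in mock and at 100.5, 88.6 and 95.3 FPKM in *Slpi* libraries. All *Slpi* libraries were above all mock libraries, with a log2 difference of 0.41 (SE 0.0552). Its ratio to *Trp53* was nearly the same in both MC3T3-E1 groups, 0.687 ± 0.0441 in mock and 0.699 ± 0.0440 in *Slpi* cells, and was 8.86 ± 1.51 with vehicle and 15.3 ± 1.81 with PTH. The gene overlaps AC167363.2 on the other strand, and in the sorted cells, whose library kit does not mark strand, reads of the pair cannot be told apart.

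*Ccng1* encodes cyclin G1, which recruits a phosphatase to MDM2, and lies at chr11:40748552-40755311. It was at 14.5, 14.3 and 13.04 FPKM with vehicle and at 14.2, 14.0 and 11.2 FPKM with PTH (log2 fold change -0.09, SE 0.126, limma adjusted p = 0.654). In MC3T3-E1 cells it was at 66.9, 68.8 and 72.7 FPKM in mock and at 92.7, 98.3 and 99.0 FPKM in *Slpi* libraries. The PTH groups overlapped, while the *Slpi* libraries all lay above mock with a log2 difference of 0.47 (SE 0.0419).

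Among the genes of cell death, *Bax*, whose product permeabilizes the outer mitochondrial membrane, lies at chr7:45461697-45466898 and overlaps the gene model Gm45808 on the same strand. It was at 20.8, 13.5 and 23.9 FPKM with vehicle and at 26.03, 27.9 and 25.99 FPKM with PTH. The groups did not overlap, but the second vehicle library was low and the difference did not pass the test (log2 fold change 0.47, SE 0.197, limma adjusted p = 0.144). In MC3T3-E1 cells *Bax* was at 134, 127 and 139 FPKM in mock and at 163, 153 and 161 FPKM in *Slpi* libraries, again without overlap, with a log2 difference of 0.25 (SE 0.0433).

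*Phlda3* encodes a pleckstrin homology protein that competes with AKT for membrane lipids and lies at chr1:135766119-135769136. It was at 7.58, 8.99 and 9.10 FPKM with vehicle and at 12.6, 14.6 and 15.5 FPKM with PTH. The groups did not overlap, and the mean rose from 8.56 ± 0.848 to 14.2 ± 1.51 FPKM (log2 fold change 0.67, SE 0.128, limma adjusted p = 0.0232). In MC3T3-E1 cells *Phlda3* was at 101, 88.7 and 94.99 FPKM in mock and at 99.8, 92.2 and 93.9 FPKM in *Slpi* libraries, which overlapped (log2 difference 0.01, SE 0.0514).

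*Zmat3*, which encodes an RNA-binding zinc finger protein, lies at chr3:32334792-32366014. It was at 2.44, 2.86 and 2.42 FPKM with vehicle and at 1.59, 2.44 and 2.09 FPKM with PTH (log2 fold change -0.24, SE 0.166, limma adjusted p = 0.346). In MC3T3-E1 cells it was at 13.9, 13.4 and 14.7 FPKM in mock and at 19.1, 18.1 and 17.8 FPKM in *Slpi* libraries. The PTH and vehicle groups overlapped, and the *Slpi* libraries all lay above mock with a log2 difference of 0.37 (SE 0.0470).

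*Trp53inp1*, whose product acts as an antiproliferative cofactor of p53, lies at chr4:11156431-11174379. It was at 6.78, 7.55 and 7.74 FPKM with vehicle and at 8.02, 10.8 and 5.74 FPKM with PTH (log2 fold change 0.10, SE 0.205, limma adjusted p = 0.755). In MC3T3-E1 cells it was at 12.9, 12.6 and 12.9 FPKM in mock and at 13.2, 12.7 and 13.7 FPKM in *Slpi* libraries (log2 difference 0.04, SE 0.0413). Both pairs of groups overlapped, and the PTH libraries spread to either side of vehicle.

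*Perp*, which encodes a membrane protein of desmosomes, lies at chr10:18845020-18857073. It was at 4.71, 5.28 and 6.01 FPKM with vehicle and at 3.06, 8.70 and 0.659 FPKM with PTH. The PTH libraries spread to either side of vehicle, with a mean of 4.14 ± 4.13 FPKM, and the difference did not pass the test (log2 fold change -0.65, SE 0.567, limma adjusted p = 0.450). It was -1.28 without the second PTH library and -0.01 without the third. In MC3T3-E1 cells *Perp* was the only one of the 10 genes that was lower with *Slpi* without overlap, at 1.15, 1.30 and 1.11 FPKM in mock and at 0.861, 0.685 and 0.978 FPKM in *Slpi* libraries (log2 difference -0.25, SE 0.0886).

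In sorted osteoblasts, 2 of the 10 genes rose with PTH (*Mdm2* and *Phlda3*), 1 fell (*Trp53*) and 7 did not pass the test, where 6.38% of the 13004 genes tested rose, 8.85% fell and 15.2% thus changed. The libraries did not overlap for 4 of the 10 genes (3 above and 1 below), against 40.4% of all genes tested (19.5% above and 20.9% below). The median log2 fold change of the 10 genes was 0.03, and that of all genes tested was 0.01. With 3 libraries a group, the smallest p an exact two-sided permutation test can give is 0.1, which *Trp53*, *Mdm2*, *Bax* and *Phlda3* reached. The 3 calls depended on which libraries were kept, while the directions did not. With 1 library left out, the log2 fold change was -0.61 to -0.44 for *Trp53*, 0.47 to 0.67 for *Mdm2* and 0.59 to 0.75 for *Phlda3*. Without the first vehicle library the adjusted p was 0.116 for *Trp53*, 0.135 for *Mdm2* and 0.0973 for *Phlda3*, and without the second it was 0.0808, 0.130 and 0.0833. Without the third vehicle library it was 0.0601 for *Trp53*, whereas *Mdm2* and *Phlda3* remained called. For *Trp53* it was 0.0795 without the first and 0.0592 without the second PTH library, and for *Mdm2* 0.102 without the first and 0.0682 without the third. The number of genes called in all was 1 without the first vehicle library and 0 without the second, against 1981 with all 6, while 3181 and 3053 genes had an unadjusted p below 0.05 in these limma fits and 4353 with all 6.

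In MC3T3-E1 cells, 6 of the 10 genes (*Trp53*, *Mdm2*, *Cdkn1a*, *Ccng1*, *Bax* and *Zmat3*) were higher with *Slpi* and 1 (*Perp*) was lower without overlap, and the libraries of *Mdm4*, *Trp53inp1* and *Phlda3* overlapped. Of all 11466 genes tested, 34.9% had every *Slpi* library above every mock library and 32.2% every one below, together 67.1%. By the adjusted p of limma, 31.9% of all genes tested were higher and 28.9% lower, together 60.8%, and by the same rule with at least a 2-fold change 0.733% and 0.384%. Since the genes were chosen on this contrast, nothing is read from their count. The median log2 difference of the 10 genes was 0.31, and that of all genes tested was 0.004.

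**Figure D2:**
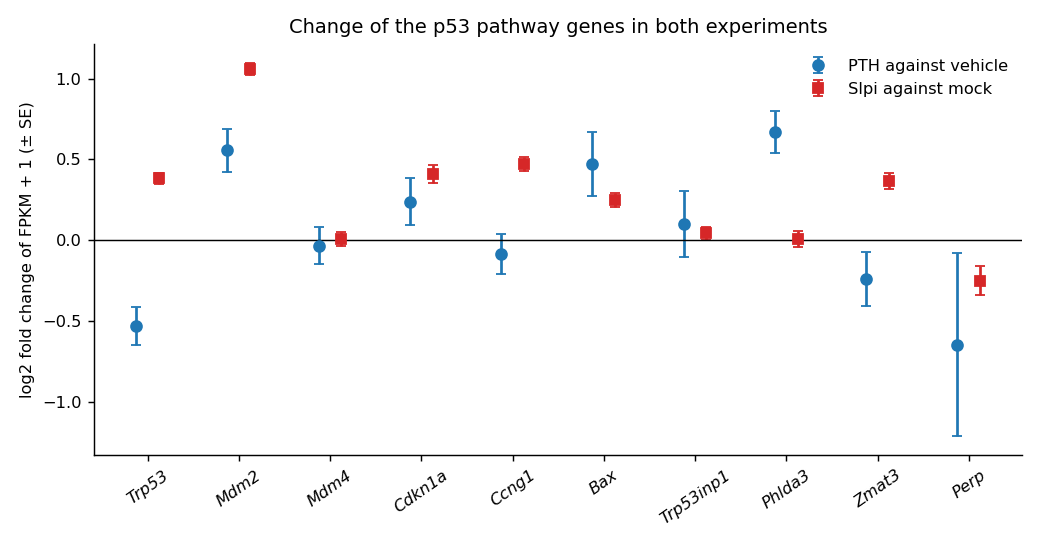
Log2 fold change of FPKM + 1 (vertical axis, ± SE, 3 libraries per group) of the 10 p53 pathway genes, for PTH against vehicle (circles) and *Slpi* against mock (squares). *Mdm2* was higher in both comparisons (0.56 and 1.06), *Trp53* moved in opposite directions (-0.53 and 0.38), and *Phlda3* stood at 0.67 and 0.01, differences between the experiments that were not tested.

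The order of the 10 genes by FPKM, a level per transcript length, differed between the sorted cells and the line. In vehicle libraries *Cdkn1a* was highest (296 ± 37.8 FPKM), followed by *Mdm2*, *Trp53* and *Bax*, with *Bax* and *Ccng1* (14.0 ± 0.807 FPKM) overlapping, and *Zmat3* was lowest (2.57 ± 0.248 FPKM). With PTH *Cdkn1a* and *Mdm2* stayed first, and *Bax* (26.7 ± 1.11 FPKM) stood above *Trp53*. In mock cells *Bax* was highest (133 ± 6.49 FPKM), followed by *Trp53* and *Phlda3* (94.9 ± 6.07 FPKM), which overlapped each other, then by *Cdkn1a* and *Ccng1* (69.5 ± 2.98 FPKM), which also overlapped, then by *Mdm2* and *Mdm4*, which overlapped too, and *Perp* was lowest (1.19 ± 0.103 FPKM). In *Slpi* cells *Mdm2* stood above *Mdm4* without overlap, and *Ccng1*, *Phlda3* and *Cdkn1a* overlapped their neighbours in the order. The experiments were normalised separately, so these levels stand side by side without a test.

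The neighbourhood of *Mdm2* on chromosome 10 was also higher in *Slpi*-overexpressing cells. This region was known from earlier results of these data, so its counts and adjusted p-values here are a description and not a test. Of the 39 tested genes within 5 Mb of *Mdm2*, 32 rose, 1 fell and 6 did not pass the test, and 8 were called with at least a 2-fold increase, where 31.9% of all genes tested rose. Their median log2 fold change was 0.62, against 0.004 over all genes tested, and 8 of the 39 had a larger value than *Mdm2* itself, whose 1.06 exceeded the median of its neighbours by 0.44. The filter admits a gene that reaches 1 FPKM in 1 group alone. The median was 0.67 over 36 genes with a mean of at least 1 FPKM, and 0.19 over 63 genes without a filter on low values. On the side of lower coordinates *Yeats4*, a chromatin reader, rose from 23.1 ± 1.30 to 49.8 ± 1.41 FPKM (SD, n = 3 each, log2 fold change 1.08, SE 0.0457, limma adjusted p = 1.3e-06), *Cpsf6*, an mRNA 3′ end processing factor, rose (0.61, adjusted p = 2.7e-05), and *Lyz2*, the myeloid lysozyme, was at 2.404 ± 0.346 in mock and 1.82 ± 0.684 FPKM in *Slpi* cells with overlap (-0.29, adjusted p = 0.140). On the other side *Nup107*, a nuclear pore scaffold protein, rose from 24.4 ± 0.324 to 66.9 ± 3.29 FPKM (1.41, SE 0.0407, adjusted p = 1.7e-07), *Rap1b*, a small GTPase, rose (0.74, adjusted p = 8.5e-07), and *Slc35e3*, a solute carrier family member, rose least (0.19, adjusted p = 0.00976).

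Around the other 9 genes the median log2 fold change of neighbours within 5 Mb lay between -0.03 and 0.04 in the same comparison, including *Perp*, which lies on the same chromosome as *Mdm2*. Within 2 Mb it was 0.76 for *Mdm2* (15 neighbours, 12 of which rose), 0.49 for *Ccng1* (3 neighbours, all of which rose, beside its own 0.47) and -0.10 to 0.05 for the other 8. In sorted osteoblasts, of the 41 tested neighbours of *Mdm2* within 5 Mb 1 rose and 4 fell with PTH, beside 6.38% and 8.85% of all genes tested, the median was 0.02, and *Nup107* fell (log2 fold change -0.47, limma adjusted p = 0.0331) while *Mdm2* rose. The window was examined because earlier results of these data had shown a region of higher expression on this chromosome. The counts and adjusted p-values of its genes in *Slpi* cells are therefore a description.

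**Figure D3:**
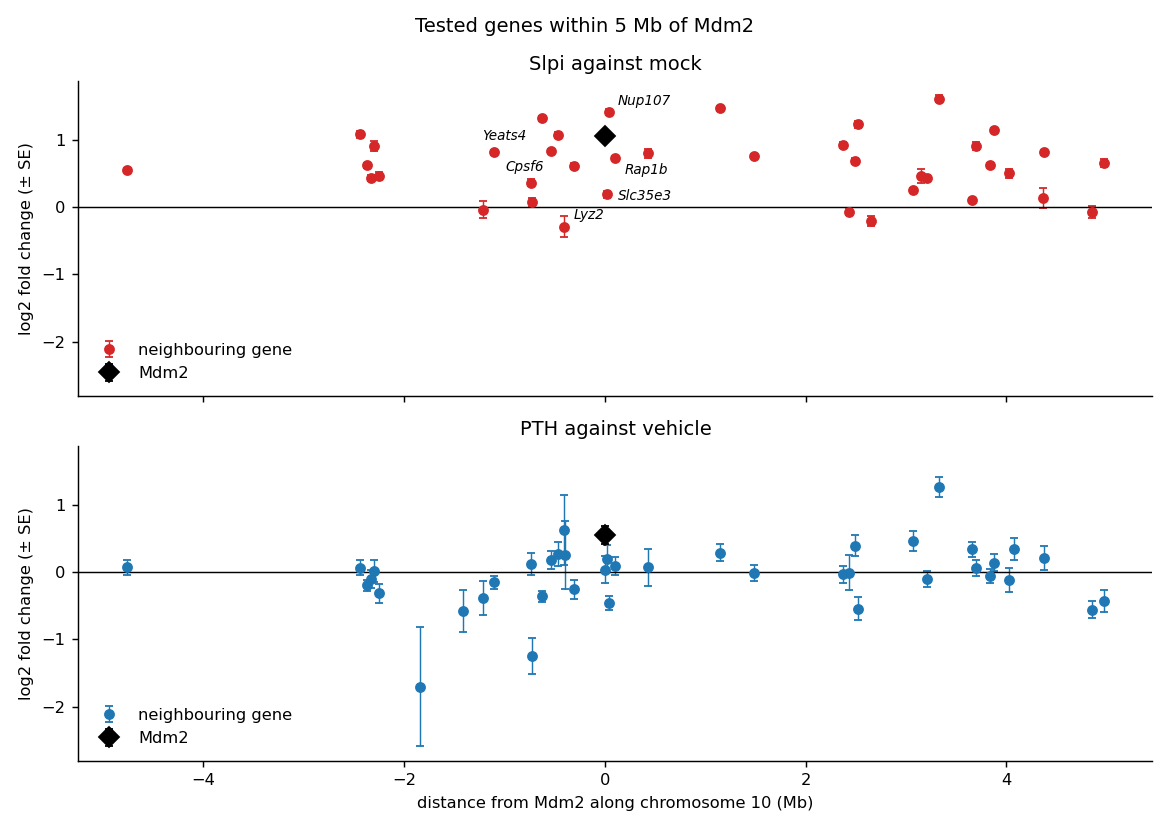
Log2 fold change (vertical axes, ± SE, 3 libraries per group) of the tested genes within 5 Mb of *Mdm2* against their distance from it in Mb, for *Slpi* against mock (upper panel, 39 genes) and PTH against vehicle (lower panel, 41 genes), with *Mdm2* as a black diamond. In the upper panel 32 genes rose and 1 fell around a median of 0.62, and in the lower panel 1 rose and 4 fell around a median of 0.02. Without a filter on low values the median for *Slpi* against mock was 0.19 over 63 genes. Of all genes tested, 31.9% rose and 28.9% fell with *Slpi*, and 6.38% rose and 8.85% fell with PTH.

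Over the 6 MC3T3-E1 libraries, the genes whose log2(FPKM + 1) followed *Mdm2* most closely were *Sesn2*, a p53-induced inhibitor of mTORC1, *Spry1*, an antagonist of receptor tyrosine kinase signalling, *Cdc25a*, a cell cycle phosphatase, *Rpa2*, a single-stranded DNA-binding protein, and *Urb1*, a ribosome biogenesis factor. Their Pearson r with *Mdm2* was 0.9996 to 0.9990, and 1726 of the 11465 other tested genes had an r above 0.95. The libraries form 2 groups, so that a gene that differs between them has a high r. Among the other members of the pathway the r was 0.99 for *Trp53*, 0.98 for *Zmat3* and *Ccng1*, 0.97 for *Cdkn1a*, 0.95 for *Bax*, 0.61 for *Trp53inp1*, 0.11 for *Phlda3*, 0.07 for *Mdm4* and -0.84 for *Perp*.

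Further p53 targets were examined as a list of 46 known target genes beyond the 10, of which 43 were tested in each experiment. With PTH, 3 rose, 4 fell and 36 did not pass the test, shares near those of all genes tested (6.38% and 8.85%), and their median log2 fold change was -0.12. *Cgref1*, a secreted growth regulator, rose from 302 ± 37.1 to 586 ± 111 FPKM (log2 fold change 0.94, SE 0.159, limma adjusted p = 0.0183). *Plk2*, a kinase of centriole duplication, rose (0.86, adjusted p = 0.0142), as did *Gadd45a*, a growth arrest and DNA damage gene (0.58, adjusted p = 0.0479). *Tap1*, the peptide transporter of antigen presentation, fell (-0.98, adjusted p = 0.0334), and *Siva1*, a proapoptotic gene, fell (-0.72, adjusted p = 0.0238). Without the first or the second vehicle library 0 of the 43 were called, and the same held for the 2 lists that follow. At an unadjusted p below 0.05 with all libraries, 11 of the 43 were higher and 6 lower, beside 15.97% and 17.5% of all genes tested.

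In *Slpi* cells 17 of the 43 rose, 9 fell and 17 did not pass the test, beside 31.9% and 28.9% of all genes tested, with a median log2 fold change of 0.08. The 17 that rose spanned 0.18 to 1.01 and the 9 that fell -0.37 to -0.17. *Eda2r*, a death receptor for ectodysplasin, rose from 4.42 ± 0.370 to 9.87 ± 0.151 FPKM (1.01, SE 0.0577, limma adjusted p = 5.4e-06). *Cgref1* rose here too, from 22.8 ± 2.17 to 44.1 ± 1.61 FPKM (0.93, adjusted p = 1.3e-05), and *Aen*, an apoptosis-enhancing nuclease, rose (0.78, adjusted p = 8.3e-06). *Gtse1*, which carries p53 out of the nucleus, and *Sfn*, the 14-3-3σ checkpoint gene, rose by 0.54 and 0.51 (adjusted p = 4.6e-05 and 0.000157). Of the targets of growth arrest and feedback 5 of 12 rose and 2 fell, of those of cell death 5 of 9 rose and 0 fell (0 also at an unadjusted p below 0.05), and of those of DNA repair and nucleotide supply 2 of 7 rose and 3 fell. Of the remaining targets, those of metabolism and other roles, 5 of 15 rose and 4 fell. Among the cell death targets, *Fas* (-0.24) and *Tnfrsf10b* (-0.10) were lower at an unadjusted limma p of 0.056 each, just above the cutoff. *Pmaip1*, another of them, was too low to be tested, at a mean of 0.392 FPKM in mock and 0.210 in *Slpi* cells without overlap. *Plk2*, which rose with PTH, fell with *Slpi* (-0.17, adjusted p = 0.00265), a difference between the experiments that was not tested.

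Regulators of p53 formed a list of 18 genes, namely kinases and partners of p53 and factors of its stability. With PTH 0 of 18 rose, 2 fell and 16 did not pass the test of limma, beside 6.38% and 8.85% of all genes tested. At an unadjusted p below 0.05, 0 regulators were higher and 4 lower, beside 15.97% and 17.5% of all genes tested. *Cdkn2a*, the locus of the MDM2 antagonist p19Arf and of p16Ink4a, was at 12.2, 16.1 and 9.59 FPKM with vehicle and at 2.33, 3.12 and 2.38 FPKM with PTH, a fall to well below every vehicle library (log2 fold change -1.90, SE 0.198, limma adjusted p = 0.0133). *Atm*, the kinase that signals DNA double-strand breaks to p53, fell from 2.85 ± 0.340 to 1.03 ± 0.230 FPKM (-0.93, adjusted p = 0.0204). In MC3T3-E1 cells *Cdkn2a* was listed at 0 in all 6 libraries, and of the 17 regulators tested 8 rose, 2 fell and 7 did not pass the test, beside 31.9% and 28.9% of all genes tested. The largest increases in the list were those of the damage kinases *Chek1* (0.53, adjusted p = 0.000388), *Atm* (0.40, adjusted p = 0.000594) and *Atr* (0.33, adjusted p = 0.00125), of *Rpl23*, a ribosomal protein that binds MDM2 (0.29, adjusted p = 0.000254), and of *Usp7*, a deubiquitinase of MDM2 and p53 (0.26, adjusted p = 0.000592).

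Cell cycle genes that p21 represses through the DREAM complex formed a list of 14. With PTH 0 rose, 2 fell and 12 did not pass the test of limma (0 higher and 7 lower at an unadjusted p below 0.05), beside 6.38% and 8.85% of all genes tested (15.97% and 17.5% unadjusted). The 2 were *Mki67*, a proliferation antigen (log2 fold change -1.07, limma adjusted p = 0.0321), and *E2f1*, a transcription factor of S phase entry (-0.93, adjusted p = 0.0373). The third PTH library was the lowest of the 6 for all 14 genes. The median log2 fold change of the list was -0.65 with all libraries and -0.31 without that one, when 1 gene was called. It was -0.80 without the second PTH library, when 0 were called, and -0.77 without the first, when 1 was. In *Slpi* cells 13 of 14 rose and 0 fell (14 higher and 0 lower at an unadjusted p below 0.05), beside 31.9% and 28.9% of all genes tested, and the median was 0.53. The largest increases in the list were those of *Mybl2* (0.80, adjusted p = 1.8e-05), a partner of the activating form of the complex, of the mitotic kinases *Aurkb* (0.69, adjusted p = 1.5e-05) and *Bub1* (0.63, adjusted p = 0.000289), of the topoisomerase *Top2a* (0.62, adjusted p = 0.000107) and of the anaphase activator *Cdc20* (0.59, adjusted p = 8.5e-06).

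Of the relatives of p53, *Trp63* was at 21.2, 22.2 and 22.9 FPKM in mock and at 17.8, 16.4 and 16.9 FPKM in *Slpi* libraries, and fell (log2 fold change -0.36, SE 0.0456, limma adjusted p = 0.000244). In sorted osteoblasts it was at most 0.0905 FPKM, and *Trp73* was listed at 0 in all 6 of these libraries and at most at 0.018 FPKM in MC3T3-E1 cells.

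**Figure D4:**
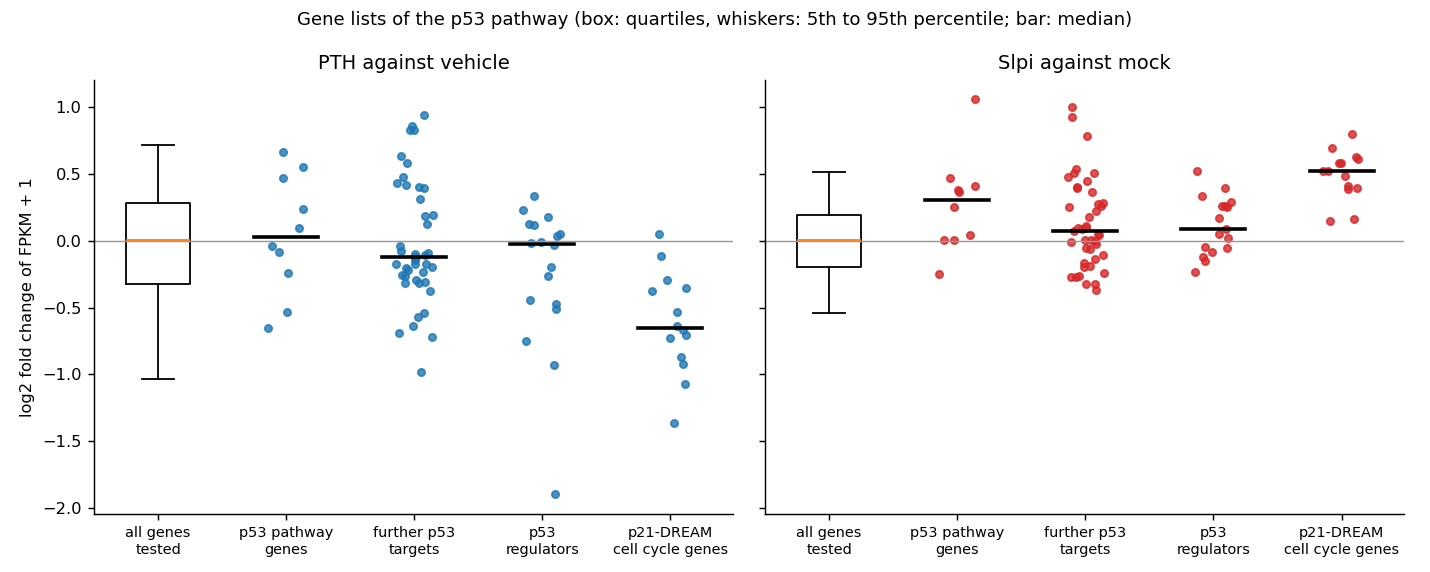
Log2 fold change of FPKM + 1 (vertical axis) of all genes tested (box with quartiles, whiskers from the 5th to the 95th percentile) and of the members of 4 lists (points, with the median as a bar), for PTH against vehicle (left) and *Slpi* against mock (right). The median of the p21-DREAM list was -0.65 with PTH (-0.31 without the third PTH library) and 0.53 with *Slpi*, while that of the further p53 targets was -0.12 and 0.08.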

How the data were processed

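RNA-Seq was performed on 12 libraries in 4 groups of 3. The deposited values are FPKM, which the authors computed with Cuffnorm of Cufflinks 2.2.1 after alignment to mm10 with TopHat2 2.0.13, Bowtie2 2.2.3 and SAMtools 0.1.19, per the labels and the methods. The annotation and the scaling option are not given in the sources used here, and the labels and methods name different kits for the MC3T3-E1 libraries. These FPKM had 3 decimals. Columns of other samples numbered 0.

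Each experiment was fitted separately with limma 3.58.1 (R 4.3.3, eBayes with a trend) on log2(FPKM + 1), over genes with at least 1 FPKM in at least 1 of 6 libraries, with two-sided Benjamini-Hochberg adjusted p-values over all genes tested. The members and lists were chosen with earlier results of these data known. Genes named were the 10 members, up to 5 called genes of each list with the largest change, the 3 nearest tested genes on each side of *Mdm2*, the 5 genes most correlated with it, *Slpi*, *Trp63* and *Trp73*. Others (marker genes, Trp53-ps, Gm29257, AC167363.2 and Gm45808, and *Plk2*, *Fas*, *Tnfrsf10b* and *Pmaip1* in *Slpi* cells) were named beside results they touch, after their values were seen. Positions came from GENCODE M21 and RefSeq for 22999 of 23284 and 24212 of 24346 names, and promoters from RefSeq. On simulated data with 200 genes changed by 2 on the log2 scale, the fit recovered 183 with 11 false calls in the PTH design (12540 genes) and 200 with 6 false calls in the *Slpi* design (11332 genes). The changed genes were drawn only from those with a mean log2(FPKM + 1) above 2, and the noise was normal and independent between genes. Recovery of smaller changes, of changes in weakly expressed genes or with a large share of genes changed was not simulated. Alternatives were the replicate block, other filters, a pseudocount of 0.1, no trend, quantile normalization, a 2 Mb window and leaving out each library. Whether replicate numbers pair libraries is not documented, and the main fit used no block. Correlations of same-numbered deviations were 0.0294, 0.0735 and 0.102 in the first experiment and 0.0385, -0.0523 and -0.000264 in the second. Those of other pairs were -0.116 to 0.0688 and -0.0988 to 0.105. In the first experiment each vehicle library correlated most with the PTH library of its number. The first PTH library, however, correlated more with the second vehicle library than with the first (0.0688 against 0.0294), so these values cannot decide on a pairing.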

Additional observations from a re-analysis of the deposited data

How the results depend on the processing

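Read counts were not used, so the depth behind low FPKM values is known only in relative terms, and FPKM of about 1, as for *Perp* in MC3T3-E1 cells, are the least certain. In the PTH comparison, the 1981 genes called became 1310 (517 higher, 793 lower) without a filter on low values. The p21-DREAM list then had 0 calls in place of 2, and the further p53 targets had 4 in place of 7 without the variance trend. Replicate numbers are not a documented pairing. With a replicate block the calls numbered 2262 with PTH and 7172 with *Slpi* (6973 without it), and the p21-DREAM list had 5 calls with PTH. Leaving out 1 library at a time gave, with PTH, 0 to 1569 genes called, 0 to 6 further targets, 0 to 3 regulators and 0 to 2 p21-DREAM genes, with a median log2 fold change of the 10 genes of -0.09 to 0.07. With *Slpi* it gave 6130 to 6921 genes, 24 to 28 further targets, 9 to 11 regulators and 12 to 13 p21-DREAM genes, a median of the 10 genes of 0.28 to 0.34 and a median of the neighbours of *Mdm2* of 0.63 to 0.67. That last median was 0.76 within 2 Mb, 0.69 with a pseudocount of 0.1 and 0.19 without a filter, when it covered 63 genes in place of 39. Among the 10 genes, *Mdm2* with PTH was called in 5 of 12 alternatives, and beside the libraries named above it lost its call without a filter (adjusted p = 0.0541), without the trend (0.0593) and with quantile normalization (log2 fold change 0.32, adjusted p = 0.129). *Trp53* was called in 7 of 12 and *Phlda3* in 10 of 12. With quantile normalization *Cdkn1a* was at -0.07 with PTH and *Mdm4* at -0.05 with *Slpi*. The *Slpi* difference of *Mdm2* was 1.01 to 1.09 over all 12 alternatives.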
